A study of Mus musculus with 8 samples.

Results

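Zfp36, Zfp36l1 and Zfp36l2 encode a family of zinc finger proteins that mark mRNAs for decay, and their liver transcripts were followed in mice given the gut microbial metabolite 4-hydroxyphenylacetic acid (4-HPAA) into the portal vein. Zfp36l2 was chosen because it held one of the smallest p values of the contrast between infusions, and the other two genes were added as its paralogs. The 3 genes, with 7 annotated transcripts, were taken from 35975 genes and 116728 transcripts matched to the annotation. Zfp36l2 stood higher in all 4 livers given 4-HPAA than in all 4 livers given normal saline, at 56.5 ± 11.3 against 33.4 ± 2.66 CPM (SD over 4 mice per group). CPM is the normalized count of a gene, per 1000000 counts of its library. Zfp36l1 and Zfp36 overlapped between the groups, and their mean levels lay in opposite directions from those of normal saline. Because the contrast itself chose Zfp36l2, its difference between infusions is given as a description, and nothing is supported with its p value or its calls.

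Each of the 8 libraries held liver RNA of 1 C57BL/6 mouse, 8 to 10 weeks old at purchase. All mice had a laparotomy and a catheter tied into the portal vein, fed by an osmotic pump under the skin, and were housed singly afterwards. The pumps delivered 0.25 µL per hour for 2 weeks, filled with normal saline in 4 mice (normal saline) and with 55 mM 4-HPAA dissolved in normal saline in the other 4 (4-HPAA). Both groups therefore carried the surgery, the catheter and the vehicle, and mice without surgery were not part of these libraries. Male and female mice were used in the study, and the sex of these mice was not given in the sources used here. Total estimated counts lay between 29559978 and 30673398 per library, so counting error was small beside the spread between mice for the 3 genes. Hepatocyte markers such as albumin and transthyretin summed to between 104410 and 136910 CPM over the 8 libraries, in keeping with the labelled tissue. In whole tissue, fewer cells of a type and less RNA per cell cannot be told apart.

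The 3 proteins, also called tristetraprolin (Zfp36), BRF1 (Zfp36l1) and BRF2 (Zfp36l2), bind AU-rich elements in the 3' untranslated region (3' UTR) of mRNAs through paired CCCH zinc fingers. They then recruit the CCR4-NOT complex, which shortens the poly(A) tail, and decapping and exosome enzymes degrade the message. Cytokine, growth factor and cell cycle mRNAs are the best known targets, and in liver the mRNA of Cyp7a1, the rate-limiting enzyme of bile acid synthesis, is also one. Zfp36 is itself an immediate early gene, one that serum, stress or inflammatory signals switch on within minutes. Kinases of the p38 pathway phosphorylate the proteins and hold back their activity, and the family's own mRNAs carry AU-rich elements too.

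The AU-rich elements of the family are shown because the family's own transcripts hold the letters that its proteins bind. The heptamer TATTTAT, the core of an AU-rich element in DNA letters, was found 3 times in the 3' UTR of each member, read on the sense strand of the transcript with most counts. In each member, 1 of the 3 copies had a T on both sides, which makes the longer nonamer that the zinc fingers prefer. These copies are given here in 30-base windows of GRCm38, with the heptamer in capitals. The window of Zfp36 lies on the minus strand at chr7:28376950-28376979, that of Zfp36l1 on the minus strand at chr12:80108166-80108195, and that of Zfp36l2 on the minus strand at chr17:84184913-84184942.
Zfp36: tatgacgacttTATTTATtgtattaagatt
Zfp36l1: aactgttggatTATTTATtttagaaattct
Zfp36l2: actatttaactTATTTATtatcttgtgaaa
Of the 12486 tested genes with an annotated 3' UTR, 27.8% held at least 1 heptamer and 3.66% held 3 or more. The 3' UTRs of the members were 767 bases long in Zfp36, 1835 in Zfp36l1 and 1822 in Zfp36l2, against a median of 994 over those genes. A match of letters is a description of the sequence and does not show that a protein was bound in these livers.

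Zfp36l2 (ENSMUSG00000045817) lies on the minus strand of chromosome 17 of GRCm38, from 84183931 to 84187947, and has 1 annotated transcript of 3530 bases in 2 exons. Its levels were 35.8, 32.7, 29.9 and 35.0 CPM in the normal saline livers and 53.6, 43.9, 71.1 and 57.2 CPM in the 4-HPAA livers. The lowest 4-HPAA library thus stood above the highest normal saline library. The normal saline livers were close to each other, and the 4-HPAA livers were spread more widely, with replicate 3 the highest. The log2 fold change was 0.76 (standard error 0.13), a ratio of 1.69. With each library left out in turn it stayed between 0.63 and 0.86. By its p value Zfp36l2 ranked 2 of 12883 genes tested. Only 0.132% of the tested genes had a higher log2 fold change, and as the same contrast chose the gene, nothing further is read from its rank.

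No gene of the 12883 was called by the main test, edgeR's quasi-likelihood F test at a Benjamini-Hochberg adjusted p under 0.05, which is 0% of the genes tested. The same test gave an unadjusted p under 0.05 to 225 genes (1.75%), limma-voom called 0, and DESeq2 called 2 of 12868 genes (0.0155%). The 2 genes called by DESeq2 were Zfp36l2 and Ggnbp1, and for Zfp36l2 this is part of the description, since the contrast chose it. Groups that did not overlap were found in 154 genes (1.2%), of which 70 were higher with 4-HPAA (0.543%).

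Zfp36l1 (ENSMUSG00000021127), a gene with roles in endothelial and bile acid biology as well as in lymphocytes, lies on the minus strand of chromosome 12 from 80107754 to 80113013. Its levels were 87.1, 71.8, 68.6 and 75.5 CPM in the normal saline livers and 108, 65.8, 95.5 and 93.6 CPM in the 4-HPAA livers. In this gene, 3 of the 4 livers given 4-HPAA stood above every normal saline liver, and 4-HPAA replicate 2 stood below all of them. The means were 75.7 ± 8.08 and 90.7 ± 17.8 CPM (SD over 4 mice per group). The log2 fold change was 0.26 (standard error 0.14), which did not pass the test (edgeR's quasi-likelihood test, unadjusted p = 0.0992, Benjamini-Hochberg adjusted p = 1.00). Without 4-HPAA replicate 2 it was 0.39, and without 4-HPAA replicate 1 it was 0.17.

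Zfp36 (ENSMUSG00000044786), the founding member and a brake on tumour necrosis factor, lies on the minus strand of chromosome 7 from 28376784 to 28380253. Its levels were 239, 136, 126 and 189.9 CPM in the normal saline livers and 211, 95.4, 119 and 81.5 CPM in the 4-HPAA livers. Replicate 1 was the highest library of each group, and the groups overlapped. The means were 173 ± 52.5 and 127 ± 58.3 CPM (SD over 4 mice per group), and the log2 fold change was -0.45 (standard error 0.30). This did not pass the test (edgeR's quasi-likelihood test, unadjusted p = 0.170, Benjamini-Hochberg adjusted p = 1.00). Without normal saline replicate 1 the log2 fold change was -0.25, and without 4-HPAA replicate 1 it was -0.81.

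**Figure D1:**
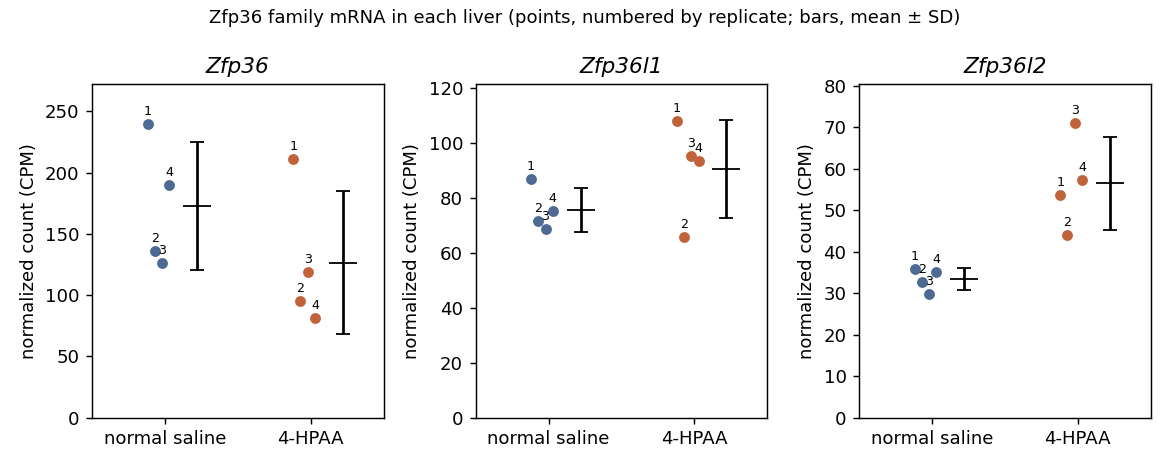
Normalized count (CPM) of Zfp36, Zfp36l1 and Zfp36l2 in each liver, with a panel for each gene and linear axes that start at 0. Points are libraries numbered by replicate and bars are the mean ± SD of 4 mice; the groups stand apart for Zfp36l2 (29.9 to 35.8 against 43.9 to 71.1 CPM) and overlap for Zfp36 and Zfp36l1.

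The members also differed in how much they varied among mice of the same infusion. The within-group SD on the log2 scale was 0.52 for Zfp36, 0.24 for Zfp36l1 and 0.22 for Zfp36l2, against a median of 0.18 over all genes tested. A larger SD than that of Zfp36 was found in 5.82% of the tested genes, while 33.2% exceeded Zfp36l1 and 38.2% exceeded Zfp36l2. For Zfp36, the spread among mice of 1 infusion was thus larger than the difference between the infusions, at -0.45 on the same scale.

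Levels were compared between the genes only per length, as counts per kilobase of transcript scaled to a sum of 1000000 in every library. In the normal saline livers the order was Zfp36 at 111 ± 35.7, Zfp36l1 at 44.1 ± 7.45 and Zfp36l2 at 15.5 ± 1.45 (SD, n = 4), and no library of a gene overlapped with those of the next. In the 4-HPAA livers the same order of means held, at 79.9 ± 35.1, 51.8 ± 10.02 and 26.0 ± 5.52 (SD, n = 4). Here Zfp36 and Zfp36l1 overlapped, from 50.1 to 129.7 and from 38.5 to 62.4, and in 4-HPAA replicate 4 Zfp36l1 stood above Zfp36. Zfp36l2 stayed below both, with a highest library at 33.8. Over all 8 libraries, 8.15% of the tested genes had a higher mean level per length than Zfp36, 14.2% than Zfp36l1 and 28.6% than Zfp36l2.

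Summed per length, the 3 members together reached 170 ± 44.3 in the normal saline livers and 158 ± 43.6 in the 4-HPAA livers (SD over 4 mice per group), with ranges of 134 to 229 and 121 to 216 that overlapped. The share of each member in that sum was also read by library. Zfp36l2 held 7.54%, 10.7%, 10.4% and 8.88% of it in the normal saline livers and 10.97%, 17.2%, 20.3% and 20.2% in the 4-HPAA livers. The lowest share with 4-HPAA, in replicate 1, stood just above the highest with normal saline. Zfp36 held 64.2 ± 4.16% after normal saline and 49.3 ± 8.67% after 4-HPAA (SD over 4 mice per group), with overlap of replicate 1 of 4-HPAA with the lowest normal saline library. Zfp36l1 held 26.4 ± 2.82% and 33.5 ± 4.90% (SD over 4 mice per group). These shares include the gene chosen by the contrast and are a description with no test.

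The ratio of Zfp36 to Zfp36l2 per length lay between 5.73 and 9.10 in the normal saline livers and between 1.95 and 5.48 in the 4-HPAA livers. The ratio of Zfp36 to Zfp36l1, which leaves out the chosen gene, lay between 2.02 and 2.87 with normal saline and between 0.975 and 2.08 with 4-HPAA. This second ratio overlapped between the groups through 4-HPAA replicate 1.

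**Figure D2:**
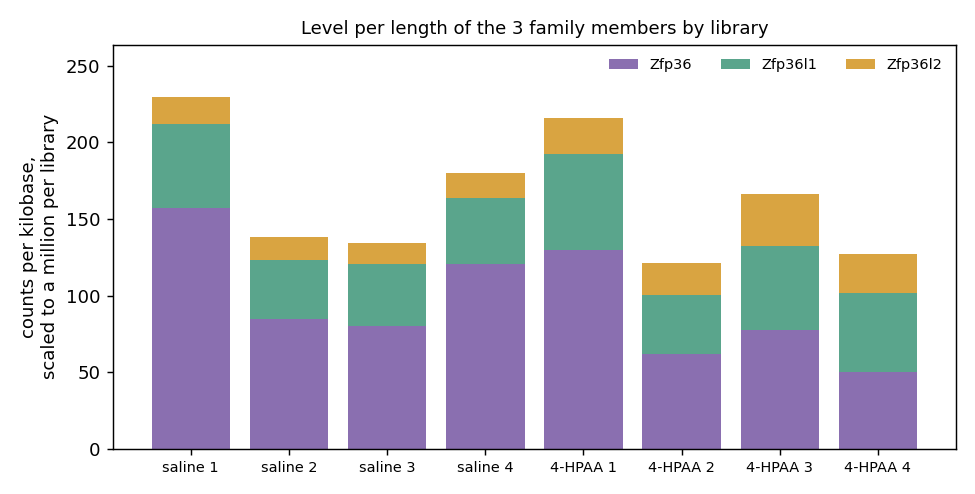
Counts per kilobase of transcript, scaled to a sum of 1000000 per library, of the 3 family members, stacked for each of the 8 libraries from 0. The sum runs from 121 to 229; the Zfp36l2 part is 13.9 to 17.3 in the normal saline libraries and 20.9 to 33.8 in the 4-HPAA libraries, and Zfp36 is the largest part in every library except 4-HPAA 4, where Zfp36l1 is.

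Only Zfp36l2 has a single annotated transcript, so the counts of the other members were also read per transcript. No transcript of the 25533 tested was called by edgeR's quasi-likelihood F test after Benjamini-Hochberg adjustment (0%), and 979 had an unadjusted p under 0.05 (3.83%). Of the 7 transcripts of the family, 4 passed the filter of 10 counts in every library. The 3 that did not were transcripts of Zfp36l1.

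Zfp36 has the transcripts Zfp36-201, of 2 exons and 2790 bases, and Zfp36-202, a single exon of 2465 bases that keeps the intron. Zfp36-202 held 65.9 ± 7.68% of the gene's estimated counts after normal saline and 65.9 ± 7.45% after 4-HPAA (SD over 4 mice per group). The difference was 0.0151 percentage points (exact permutation test, two-sided, p = 1.00, where the smallest p these groups allow is 0.0286). The estimated counts of Zfp36-201 were 3198, 1244, 1432 and 1381 in the normal saline livers and 1412, 1133, 1280 and 899 in the 4-HPAA livers. Normal saline replicate 1 thus held more than any other library. The log2 fold change of Zfp36-201 was -0.58 (standard error 0.28, edgeR's quasi-likelihood test, unadjusted p = 0.0635, adjusted p = 1.00). That of Zfp36-202 was -0.38 (standard error 0.35, unadjusted p = 0.309, adjusted p = 1.00, same test). Zfp36-202 covers positions 28376791 to 28379255 of chromosome 7 and Zfp36-201 begins at 28380253. The 2 thus overlap over most of their length, and the division between them is an estimate of the pseudo-alignment. The share of Zfp36-202 is therefore no measure of how much Zfp36 mRNA keeps the intron.

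Zfp36l1 was carried almost wholly by Zfp36l1-201, of 2990 bases, which held 98.7 ± 0.972% of its counts after normal saline and 98.8 ± 0.803% after 4-HPAA (SD over 4 mice per group; exact permutation test, two-sided, p = 1.00). Its log2 fold change was 0.27 (standard error 0.14, edgeR's quasi-likelihood test, unadjusted p = 0.0887, adjusted p = 1.00), close to that of the gene. Zfp36l1-204 lay between 0 and 75.05 estimated counts when rounded, Zfp36l1-202 reached at most 6.64 counts, and the fourth was listed at 0 in all libraries.

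**Figure D3:**
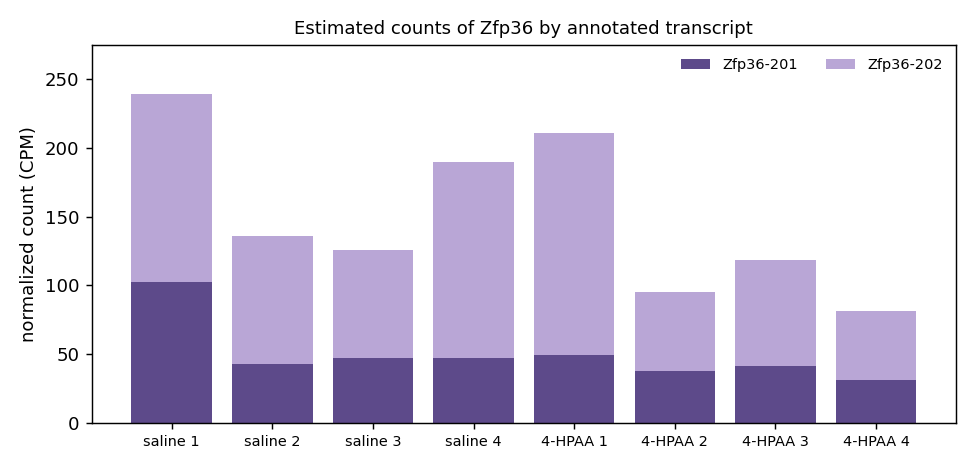
Estimated counts of Zfp36 in each library as CPM, stacked by annotated transcript from 0. Zfp36-201 reaches 102.5 CPM in normal saline 1 and lies between 31.4 and 49.3 CPM in the other 7 libraries, and Zfp36-202 runs from 50.1 to 161.7 CPM.

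How far the members can be told from other genes was read from the annotated transcript sequences. The reads themselves were not examined. Of the 31-base words of Zfp36l2, 2 of 3500 also occur in another gene, Zfp36l1. For Zfp36l1 the share was 6.79%, with Zfp36l2 and the pseudogene Zfp36l1-ps, and this part of its count is less certain. For Zfp36 it was 3.75%, all of it in Zfp36-201 (130 words), and the words occur in 849 other genes, as a repeat does. Each member is overlapped on the other strand by 1 gene, Gm44710 for Zfp36, Gm26669 for Zfp36l1 and AC132455.1 for Zfp36l2. The library kit marks strand, but the pseudo-alignment was run with standard parameters, and whether it used strand was not stated.

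Across the 8 libraries, with the group means removed, Zfp36 and Zfp36l1 deviated together with a Pearson r of 0.68 (exact permutation within groups, p = 0.146; Spearman rho 0.69, p = 0.0990). For Zfp36l1 and Zfp36l2 the r was 0.69 (exact permutation, p = 0.188; rho 0.60, p = 0.168), and for Zfp36 and Zfp36l2 it was 0.26 (exact permutation, p = 0.634; rho 0.36, p = 0.453). Adjusted over the 6 relations computed, the p values of r were 0.281, 0.281 and 0.634 (exact permutation, Benjamini-Hochberg). None of the 3 pairs passed. Without the 2 libraries farthest from the median of the first gene, r was 0.25 for Zfp36 with Zfp36l1, 0.63 for Zfp36l1 with Zfp36l2 and 0.55 for Zfp36 with Zfp36l2.

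The mean of the immediate early genes, the class to which Zfp36 belongs, was highest in replicate 1 of both groups. The mean of the 20 immediate early genes tested, members excluded, was 3.75, 2.37, 2.23 and 2.81 log2 CPM in the normal saline livers and 3.17, 2.11, 2.39 and 2.42 log2 CPM in the 4-HPAA livers. Fos, a subunit of the AP-1 transcription factor, was at 45.6 CPM in normal saline replicate 1 and 27.5 CPM in 4-HPAA replicate 1, and between 0.420 and 7.39 CPM in the other libraries. Egr1, a zinc finger transcription factor, was at 140.9 and 102.5 CPM in those libraries and between 4.72 and 60.0 CPM in the others. Not every gene of the class followed this, as Ier5 was lowest in replicate 1 of each group, at 1.76 and 2.41 CPM.

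With group means removed, Zfp36 deviated together with the mean of the immediate early genes across the libraries (r = 0.86, exact permutation, p = 0.0122, adjusted p = 0.0365). Its Spearman rho was 0.71 (exact permutation, p = 0.0521, adjusted p = 0.156). Without the replicate 1 libraries of both groups, r was 0.66 (exact permutation, p = 0.278). With so few libraries left, this cannot tell whether those 2 libraries carried the relation of Zfp36. For Zfp36l1, r was 0.76 (exact permutation, p = 0.00694, adjusted p = 0.0365) and rho was 0.81 (exact permutation, p = 0.00521, adjusted p = 0.0313). Without the same 2 libraries its r was 0.66 (exact permutation, p = 0.0556), and this relation did not pass on the fewer libraries either. For Zfp36l2, r was 0.33 (exact permutation, p = 0.368, adjusted p = 0.442) and rho was 0.50 (exact permutation, p = 0.205, adjusted p = 0.246). The difference between these correlations was not tested.

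**Figure D4:**
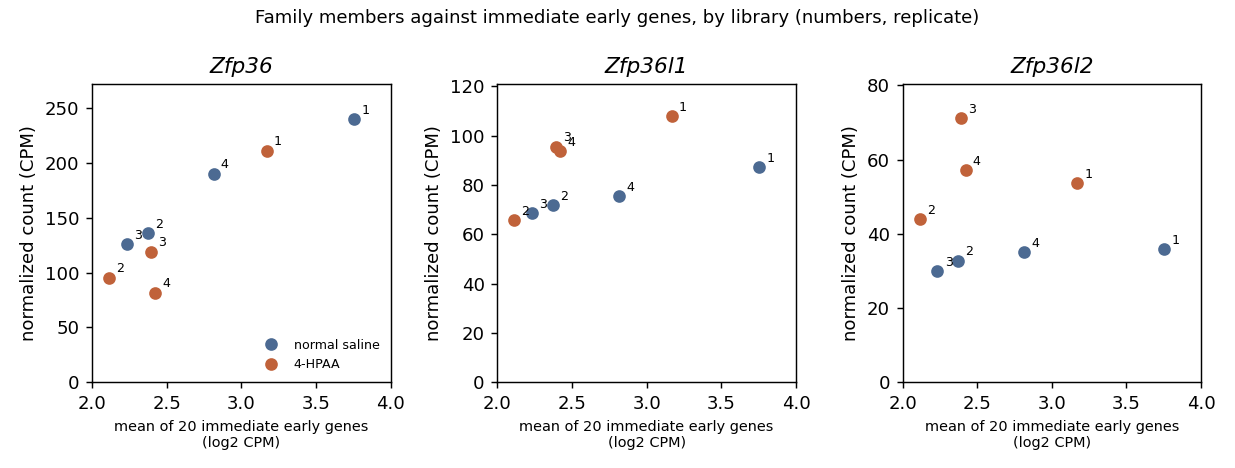
Normalized count (CPM) of each member, on linear axes from 0, against the mean of 20 immediate early genes (log2 CPM) in the 8 libraries, numbered by replicate and coloured by group. Replicate 1 of both groups lies to the right, at 3.75 and 3.17, and holds the highest Zfp36 of its group (239 and 211 CPM), while Zfp36l2 separates by group along the whole axis.

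Both replicate 1 libraries, the highest in immediate early genes, were left out in a further fit that was not planned. Zfp36l2 then had a log2 fold change of 0.82 (standard error 0.17), a description since the contrast chose it. Zfp36l1 was then at 0.24 (standard error 0.15). Zfp36 was at -0.61 (standard error 0.19, edgeR's quasi-likelihood test, unadjusted p = 0.0128). The libraries left out held the highest Zfp36 of each group, so leaving them out narrows its spread within groups. In this fit 0 genes passed after Benjamini-Hochberg adjustment, with 364 of 12975 at an unadjusted p under 0.05.

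The genes whose deviations from the group means were most like those of each member were named over the 8 libraries, as a description of likeness only. For Zfp36 they were Tmem138 (r = 0.98), Fos (0.96), Egr1 (0.96), Vegfa (0.95) and Heatr6 (0.94). Fos and Egr1 are immediate early genes, and Vegfa, which encodes a growth factor for vessels, is a known target mRNA of the family. For Zfp36l1 they were Cox16 (r = 0.98), Ces1c (0.96), Zfp653 (0.96), Ier3ip1 (0.96) and Nrbp2 (0.95). For Zfp36l2 they were Atg101 (r = 0.99), Trmt11 (0.98), Mri1 (0.97), Kin (0.97) and Map3k10 (0.95), and Atg101, an initiator of autophagy, had a log2 fold change of 0.02 between the infusions. With the group difference left in, the genes nearest Zfp36l2 were Ccdc71l (r = 0.94), Zfp703 (0.93), Tm2d1 (0.93), Irf2bpl (0.92) and Emc7 (0.91). Each list was picked as the highest of 12883 genes over only 8 libraries, so no p is given.

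The promoter of Zfp36 is shown because Fos and Egr1, 2 of the 5 genes whose deviations were most like its own, are known as targets of serum response factor and of EGR factors. Promoters were read from 250 bases before to 50 after the RefSeq start (GRCm38.p6), on both strands. That of Zfp36 held 1 CArG box, the site of serum response factor, 58 bases before the start at chr7:28379267-28379296, and 1 EGR motif, GCGGGGGCG, 105 bases before it at chr7:28379314-28379343. Both windows lie inside exon 1 of Zfp36-201 (28379174 to 28380253) and before the start of Zfp36-202 at 28379255. The RefSeq start used here is thus not that of Zfp36-201. Both windows are printed on the minus strand, with the motif in capitals.
Zfp36 CArG box: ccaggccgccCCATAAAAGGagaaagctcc
Zfp36 EGR motif: gagctacgccGCGGGGGCGcgtcccggaag
Of the 27025 promoters of the same length, 1.57% held a CArG box and 2.92% the EGR motif. The cyclic AMP response element TGACGTCA and the NF-kappaB site, present in 1.88% and 0.144% of promoters, were not among the letters of the Zfp36 window. The windows of Zfp36l1, Fos and Junb held none of the 4 motifs. Sites more than 250 bases before the start were not read, so this does not show that these genes lack them. The CArG box reads the same class of letters on either strand and was counted once. Zfp36l2 and Egr1 had no entry.

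The genes of the decay machinery had list medians near that of all genes tested. Among the 15 tested genes of other AU-rich element-binding proteins, 7 were higher and 8 lower with 4-HPAA, 0 were called and 0 had an unadjusted p under 0.05, with a median log2 fold change of -0.00271 against 0.000712 over all genes tested. Hnrnpa0 (0.27, standard error 0.13) and Elavl1, which encodes the stabilizing protein HuR (-0.15, standard error 0.08), had the smallest p of that list. Hnrnpab was at 94.0 ± 5.58 CPM after normal saline and 105 ± 12.8 CPM after 4-HPAA (SD over 4 mice per group). Zfp36l3, the placental member of the family, was at 0 counts in all libraries.

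Of the 18 genes of the CCR4-NOT complex and deadenylation, 7 were higher and 11 lower, 0 were called and 0 had an unadjusted p under 0.05 (median -0.06). Cnot1, the scaffold that binds the family's proteins, was at 89.4 ± 5.82 and 92.9 ± 13.6 CPM (SD over 4 mice per group). Cnot8, a deadenylase, was the 1 gene of the list whose groups did not overlap, with means of 27.4 and 26.4 CPM, where 0.652% of all genes were lower without overlap. The smallest p values of the list belonged to Pan2, a deadenylase subunit with a log2 fold change of -0.17 (standard error 0.11), and to Tob1, an adaptor of the complex at 0.15 (standard error 0.10). Btg2, an antiproliferative partner of the complex and an immediate early gene, ranged from 15.2 to 91.3 CPM after normal saline and from 13.8 to 40.6 CPM with 4-HPAA.

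Decapping and 5'-to-3' decay genes split into 8 higher and 11 lower (19 tested, median -0.02), and exosome genes into 7 higher and 7 lower (14 tested, median -0.00435). In both lists 0 were called and 0 had an unadjusted p under 0.05. The smallest p values belonged to Lsm2 (0.23) and Lsm4 (0.20) among the decapping genes and to Exosc10 (-0.10) and Ttc37 (0.10) among the exosome genes, each as a log2 fold change. Exosc6, an exosome subunit, was listed at 0 in every library, while all other genes of that list passed the filter on low counts. The cause of this 0 was not tested.

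Of the 18 tested kinases, phosphatases and 14-3-3 proteins that act on the family's proteins, 9 were higher and 9 lower, with 0 called, 0 at an unadjusted p under 0.05 and a median of 0.01. Mapkapk2, the kinase that phosphorylates tristetraprolin, was at 50.4 ± 3.20 and 50.2 ± 4.68 CPM (SD over 4 mice per group). Mapkapk3, its relative, was at 4.91 ± 1.68 and 3.48 ± 1.27 CPM, a log2 fold change of -0.50 (standard error 0.31). Dusp1, a phosphatase that switches off p38 and is itself a known target mRNA and an immediate early gene, ranged from 48.8 to 115.4 CPM after normal saline and from 34.5 to 69.4 CPM with 4-HPAA.

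**Figure D5:**
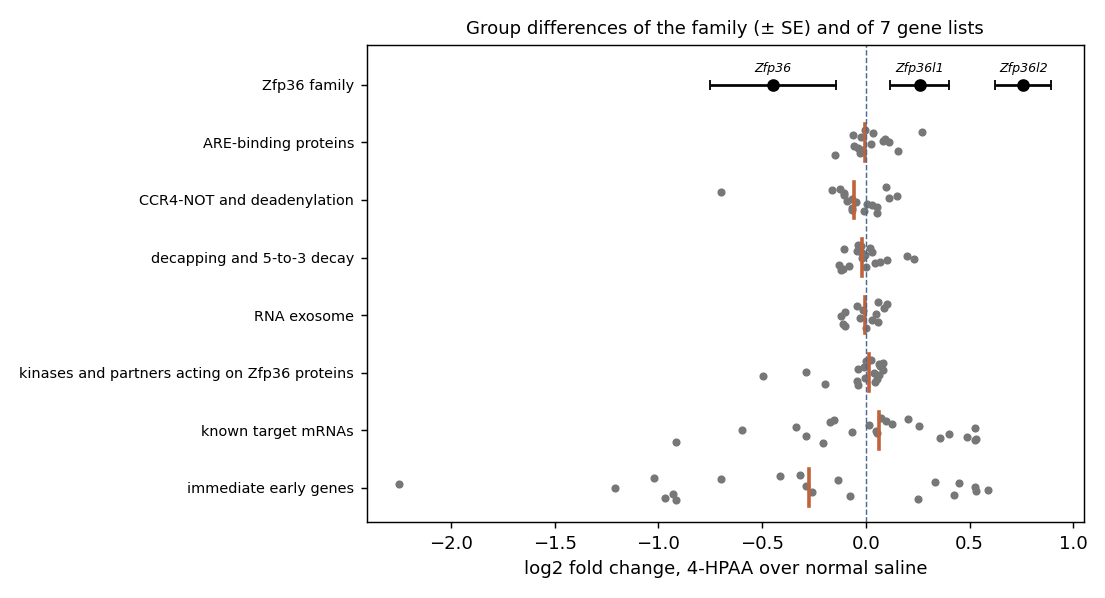
Log2 fold change of 4-HPAA over normal saline for the 3 members (black points, ± standard error) and for each tested gene of 7 lists (grey points, with the list's median as an orange bar), beside the median of all genes tested (dashed line, 0.000712). The medians of the decay machinery lists lie close to the dashed line, and Btg2 of the CCR4-NOT list is at -0.70. The known target mRNAs spread from -0.91 to 0.53 and the immediate early genes from -2.25 to 0.59.

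Of 36 known target mRNAs of the family, 22 were tested, and 14 were higher and 8 lower with 4-HPAA (median log2 fold change 0.06, 0 called). Of the 22, 2 had an unadjusted p under 0.05, 1 in each direction, where 0.753% of all genes tested were higher and 0.994% lower by that rule. With single libraries left out, the median of the list ran from -0.02 without 4-HPAA replicate 2 to 0.24 without normal saline replicate 1, and so changed sign. Without both replicate 1 libraries it was 0.13, with 5 of the 22 at an unadjusted p under 0.05 and 0 called. In that fit 364 of all 12975 genes tested were under 0.05. Most inflammatory targets were near 0 in these livers. Tnf, the classical target, had between 0 and 4 counts, and Csf2 and Il3 were at 0 in every library. Of the cytokines and chemokines in the list, only Cxcl1 passed the filter on low counts, at 98 to 454 counts.

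Pim1, a survival kinase, was at 15.5, 17.4, 20.4 and 21.3 CPM in the normal saline livers and at 28.1, 22.7, 23.6 and 29.97 CPM in the 4-HPAA livers. All 4-HPAA libraries stood above all normal saline libraries. Pim1 was the 1 gene of the 22 tested targets whose groups did not overlap, where 0.543% of all genes were higher without overlap. The log2 fold change was 0.49 (standard error 0.13, edgeR's quasi-likelihood test, unadjusted p = 0.00334, adjusted p = 1.00), so Pim1 was not called after adjustment.

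Cyp7a1 was at 296, 423, 279 and 277 CPM in the normal saline livers and at 202, 298, 225 and 118 CPM in the 4-HPAA livers. The groups overlapped through 4-HPAA replicate 2, which at 298 CPM stood above 3 of the normal saline livers. The log2 fold change was -0.60 (standard error 0.25, edgeR's quasi-likelihood test, unadjusted p = 0.0383, adjusted p = 1.00), and this did not pass either. Fgf21, a liver hormone of fasting, ranged from 0.590 to 2.92 CPM after normal saline and from 0.4001 to 5.95 CPM after 4-HPAA.

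The AU-rich letters of Pim1 and Cyp7a1, the 2 target mRNAs with the smallest p, are shown for comparison with those of the family. Pim1 held 4 overlapping heptamers in a run, on the plus strand at chr17:29495685-29495714, and Cyp7a1 held 3 separate ones, the first on the minus strand at chr4:6266973-6267002 (GRCm38, heptamers in capitals).
Pim1: aagttttaatgTATTTATTTATTTATTTAT
Cyp7a1: tactgaaaataTATTTATatataaattata
Tnf held 8 heptamers, Ier3 held 4, Vegfa and Dusp1 held 3 each, and Fos held 2. Among those tested, the log2 fold changes were 0.53 for Ier3, -0.07 for Vegfa, -0.29 for Dusp1 and -0.91 for Fos (standard errors 0.29, 0.09, 0.29 and 1.43). These genes were picked by hand and none was called, so no relation to the count of heptamers is read from them.

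Over all tested genes with a 3' UTR, those with no heptamer were higher with 4-HPAA in 49.1% of 9017 genes, those with 1 in 53.7% of 2261, those with 2 in 56.2% of 751 and those with 3 or more in 56.2% of 457. The medians of the log2 fold change were -0.00195, 0.00906, 0.0171 and 0.0205 in that order. With single libraries left out, the median of the genes with 3 or more ran from -0.02 to 0.06 and so changed sign, below 0 without normal saline replicate 2, normal saline replicate 4, 4-HPAA replicate 2 or 4-HPAA replicate 3. The classes also differed in the length of the 3' UTR, with medians of 721, 1719, 2502 and 3407 bases, and the part of length in these medians was not tested. These differences are small beside the median absolute log2 fold change of 0.07 over all genes.

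Of the 20 immediate early genes tested, 7 were higher and 13 lower with 4-HPAA, with 0 called and a median log2 fold change of -0.27. By unadjusted p, 4 were under 0.05, with log2 fold changes of 0.59 for Ier5, 0.43 for Jund, -1.02 for Gadd45b and -2.25 for Nr4a1 (standard errors 0.19, 0.18, 0.37 and 0.98). Over all genes tested, 0.753% were higher and 0.994% lower by that rule. Ier5 was the 1 gene of the list whose groups did not overlap, where 0.543% of all genes were higher without overlap. Without both replicate 1 libraries the list split into 9 higher and 11 lower with a median of -0.03. In that fit 8 of the 20 had an unadjusted p under 0.05 with 0 called, where 364 of all 12975 genes tested were under 0.05. With single libraries left out, the median ran from -0.53 without 4-HPAA replicate 1 to 0.15 without normal saline replicate 1, so both its size and its sign rest on those libraries. Gadd45b was at -0.56 without normal saline replicate 1.

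Markers of the cell types of liver were read beside the members, because Zfp36l1 and Zfp36l2 are expressed in blood, vessel and immune cells too. Kupffer cell markers summed to between 101 and 319 CPM after normal saline and between 94.5 and 272 CPM with 4-HPAA, and 2 of 9 were higher. Endothelial markers summed to 165 to 233 and 151 to 265 CPM, with 7 of 8 higher and a median log2 fold change of 0.06. Stellate and fibroblast markers summed to 120 to 218 and 130 to 213 CPM, with 6 of 8 higher. Leukocyte markers summed to 9.94 to 14.0 and 8.99 to 14.7 CPM, with 0 of 7 tested markers higher, and cholangiocyte markers to 23.5 to 45.6 and 24.1 to 38.0 CPM, with 2 of 4 tested higher. Red blood cell genes summed to 247 to 2560 and 152 to 734 CPM, with 0 of 5 higher. By the main test, no marker of these lists or of the hepatocyte list (4 of 8 higher) was called or had an unadjusted p under 0.05. Every summed range overlapped between the groups. The part of cell make-up in the levels of the 3 members was not tested.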

How the data were processed

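Liver RNA of 4 mice per infusion was sequenced as paired-end reads. The authors checked reads with FastQC 0.11.9, concatenated flow cells and pseudo-aligned the reads with kallisto to mouse transcripts (GRCm38.p6). They deposited the estimated counts of each transcript in each library, with no normalization and no pooling of libraries. Columns were matched to mice by name, and 0 pairs of libraries held identical values.

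Transcripts were assigned to genes by GENCODE M21 (GRCm38), and the gene sums were rounded. Of 119414 transcripts 116728 matched, and those left out held 0.703% to 1.06% of a library. The test was edgeR's quasi-likelihood F test (edgeR 4.0.16 in R 4.3.3, TMM) on genes or transcripts that reached 10 counts in all libraries, called at a Benjamini-Hochberg adjusted p under 0.05. Log2 CPM used a prior count of 2. Depth was 29559978 to 30673398 counts per library, and the spread between 4 mice limits the precision. Correlations used all 576 orders within groups, and transcript shares all 70 splits. Other settings tried were DESeq2 1.42.0, voom in limma 3.58.1, RLE or total-count normalization, other filters, single transcripts, counts per kilobase, libraries left out and the replicate number as a block. The fits were tested on simulated data.

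The genes named are the 3 members with their transcripts, the 5 genes most correlated with each, the 2 genes with the smallest p in each list, and Cyp7a1, Fgf21, Tnf, Cnot1, Elavl1, Mapkapk2, Dusp1, Fos, Egr1, Hnrnpab and Btg2. 1 gene of this rule and of the target list is not reported here. Ggnbp1, Cnot8, Cxcl1, Vegfa, Ier3, Junb, Jund, Nr4a1 and genes listed at 0 were named outside this rule, after their values were seen. The members, lists and tests were chosen with earlier results of these data known. Promoter sequences are from RefSeq (GRCm38.p6), with entries for 2 of the 3 members.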

Additional observations from a re-analysis of the deposited data

Results flagged for a closer look

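In 18 of 84 groups of 4 libraries checked, 1 library stood apart from the other 3 by Dixon's 95% critical value, where chance gives 4.2. Normal saline replicate 1 stood apart in Zfp36-201 at 102.5 CPM (42.7 to 47.4 in the others of its group), in Fos at 45.6 CPM (0.892 to 7.39), in Hnrnpab at 102.3 CPM (90.1 to 91.9) and in the summed cholangiocyte markers at 45.6 CPM (23.5 to 27.1). 4-HPAA replicate 1 stood apart in Fos at 27.5 CPM (0.420 to 0.700) and in Egr1 at 102.5 CPM (4.72 to 15.2). The same library stood apart in the transcripts of Zfp36l1, with Zfp36l1-201 at 97.6% of the gene's counts (99.1% to 99.2% in the others of its group) and Zfp36l1-204 at 2.43% (0.607% to 0.887%) and 2.62 CPM (0.567 to 0.700).

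Zfp36l1-202 stood apart only as the single library above 0 of its group, in normal saline replicate 3 at 0.263% and 0.164 CPM and in 4-HPAA replicate 3 at 0.225% and 0.226 CPM. Red blood cell genes were high in normal saline replicate 2 at 2560 CPM (247 to 376) and in 4-HPAA replicate 4 at 734 CPM (152 to 163). In 4-HPAA replicate 4 the stellate and fibroblast markers were low at 129.97 CPM (201 to 213), and in 4-HPAA replicate 2 the leukocyte markers were high at 14.7 CPM (8.99 to 9.497). Cyp7a1 was high in normal saline replicate 2 at 423 CPM (277 to 296).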

How the results depend on the processing

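DESeq2 called 2 genes, among them Zfp36l2 at a log2 fold change of 0.76, a description since the contrast chose it, while the other tools, normalizations and filters called 0. With each library left out, 0 to 1 genes and 0 to 1 transcripts were called, the 1 without 4-HPAA replicate 1 and not a member. Over these fits the log2 fold change ran from -0.81 to -0.25 for Zfp36, from 0.17 to 0.39 for Zfp36l1 and from 0.63 to 0.86 for Zfp36l2. The signs of all 3 held under every alternative run. For Zfp36l2 this is no support, since the contrast chose it and its groups did not overlap.

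Same-numbered libraries deviated together with correlations of 0.0398 to 0.480 (mean 0.239, against -0.0783 for other pairs), and 4 of 8 libraries were closest to their own number. Removing the group means makes these averages depend on each other. The labels do not say what the replicate number stands for, and these values do not settle whether it pairs the mice. The main model left the number out. With that number as a block in the model, 0 genes were called (336 of 12883 with an unadjusted p under 0.05). Zfp36, Zfp36l1 and Zfp36l2 were at -0.50, 0.24 and 0.74. The unadjusted p of edgeR's quasi-likelihood test was then 0.0237 for Zfp36 and 0.0494 for Zfp36l1. By the same test 10 of 20 immediate early genes and 4 of 22 known targets were under 0.05. So were 1 of 9 Kupffer cell markers, 1 of 8 stellate and fibroblast markers and 1 of 7 tested leukocyte markers. In the CCR4-NOT list and in the kinase list, 1 of 18 tested genes each was also under 0.05. Of all these lists 0 genes were called.

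The correlation with the immediate early mean no longer passed for Zfp36 without the 2 farthest libraries (0.66) or with the block (0.34), nor for Zfp36l1 pooled over groups (0.51), without the 2 libraries (0.66) or with the block (0.27). Pooled over groups, r turned to -0.33 for Zfp36 with Zfp36l2 and to -0.0834 for Zfp36l2 with the immediate early mean. The cause was not tested.

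Some log2 fold changes changed sign, in genes that were not called. Fgf21 was at -0.00993 with limma-voom. Mapkapk2 was at 0.000769 with the filter on 10 summed counts, 0.000692 with no filter and 0.0535 without both replicate 1 libraries. With single libraries left out, log2 fold changes ran from -0.73 to 1.08 for Fgf21, -0.0468 to 0.117 for Cnot1, -0.0738 to 0.0404 for Mapkapk2, -0.43 to 0.0743 for Dusp1 and -4.53 to 1.25 for Fos. Differences in transcript share ran from -3.06 to 3.57 points for Zfp36-201, -3.57 to 3.06 for Zfp36-202, -0.241 to 0.539 for Zfp36l1-201, -0.0657 to 0.0562 for Zfp36l1-202 and -0.507 to 0.272 for Zfp36l1-204, and none passed. Of the values of single genes and of medians of lists or heptamer classes under all alternatives, 466 kept their sign and 46 changed it, 34 of these being medians.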
